A study of Mus musculus with 9 samples.

Results

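Prdm16 and 8 relatives that share its PR domain were followed through 9 Affymetrix Mouse Gene ST 1.0 arrays of newborn mouse brain. The members are a fixed list of gene symbols (Prdm16, Mecom, Prdm2, Prdm4, Prdm8, Prdm10, Prdm12, Prdm13 and Prdm15), and 8 of the 9 were measured, by 10 of the 28940 probe sets. Prdm12 had no probe set under its name and was not analysed here. The arrays hold RNA of uncultured cells dissected from the ventricular zone, the progenitor layer that lines the cerebral ventricles, of C57BL/Ka pups. The genotypes were Prdm16LacZ/LacZ (KO), Prdm16LacZ/+ (HET) and Prdm16+/+ (WT), with 3 arrays each and no treatment named in the labels. The labels give neither the number of animals behind an array nor their sex, so p-values cover the spread among arrays alone, and that spread may be technical. The question put to the data was whether any relative, Mecom first, is higher where Prdm16 is lost.

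PRDM proteins are transcription regulators that join an amino-terminal PR domain, a relative of the SET domain of histone methyltransferases, to zinc fingers that bind DNA. PRDM16 and MECOM (also called EVI1 or PRDM3) are the closest pair of the family: both can carry a PR domain and separate zinc finger groups, both bind the co-repressors CTBP1 and CTBP2, and both are known for roles in blood stem cells. In the brain, PRDM16 is known in radial glia, the stem cells of the ventricular zone. The Mecom locus makes a long transcript that encodes the PR domain and, from a start further inside the locus, a shorter EVI1 transcript without it.

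The start of Prdm16 and both RefSeq starts of Mecom are shown because they set the closest pair side by side and because Mecom was measured by a pair of probe sets. Each window is 250 bases before and 50 bases after a transcript start in RefSeq (GRCm38.p6), printed in the direction of transcription. All of them lie on the minus strand: Prdm16 at chr4:154636824-154637123, the upstream Mecom start at chr3:30509710-30510009 and the inner Mecom start at chr3:30013155-30013454. Capitals mark the longest run of bases that Prdm16 and a Mecom window have in common.
Prdm16: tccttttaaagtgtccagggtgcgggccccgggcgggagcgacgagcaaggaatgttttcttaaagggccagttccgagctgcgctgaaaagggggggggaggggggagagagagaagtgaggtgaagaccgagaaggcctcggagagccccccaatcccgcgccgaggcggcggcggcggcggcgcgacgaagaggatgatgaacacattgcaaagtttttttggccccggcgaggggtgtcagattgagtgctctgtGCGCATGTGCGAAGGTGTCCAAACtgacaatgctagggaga
Mecom, upstream start: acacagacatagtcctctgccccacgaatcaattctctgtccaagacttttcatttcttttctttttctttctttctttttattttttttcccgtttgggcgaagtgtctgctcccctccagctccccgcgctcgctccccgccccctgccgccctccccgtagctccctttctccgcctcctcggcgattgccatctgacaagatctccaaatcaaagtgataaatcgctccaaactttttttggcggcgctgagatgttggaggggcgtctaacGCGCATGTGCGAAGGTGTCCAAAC
Mecom, inner start: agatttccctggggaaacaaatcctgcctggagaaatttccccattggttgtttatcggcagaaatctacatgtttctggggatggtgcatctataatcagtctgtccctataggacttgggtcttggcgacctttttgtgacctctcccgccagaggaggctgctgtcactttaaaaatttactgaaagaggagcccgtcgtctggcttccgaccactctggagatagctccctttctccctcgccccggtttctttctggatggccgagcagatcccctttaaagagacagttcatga

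The capital run is 24 bases long and lies at bases 10 to 33 of the Prdm16 transcript and bases 27 to 50 of the upstream Mecom transcript, where that window ends. Of 32850 other 300-base windows, 1 held the run on either strand, the upstream Mecom window. The inner Mecom start, 496555 bases downstream, shared no run over 7 bases with Prdm16. The other windows found for the members, 10 in all with the inner Mecom one, shared runs of 7 to 10 bases with Prdm16, and the median over all windows was 8. RefSeq windows were used for 8 of the 9 members, with Prdm12 included and none for Prdm2. GACAAGATA and GAAGATGAG, the letters of the motifs known for the amino-terminal and carboxy-terminal fingers of EVI1, were searched on both strands. Neither was found in the windows of these 8 members, and they occurred in 0.119% and 0.399% of all windows. This says only that those letters are not in these windows.

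Prdm16 fell in KO arrays. On the log2 scale of the deposited values it lay at 5.69, 6.41 and 6.17 in KO, at 6.995, 7.34 and 6.998 in HET and at 7.62, 7.57 and 7.23 in WT arrays. Every KO array lay below every HET and WT array, while HET and WT overlapped, with HET replicate 2 above WT replicate 3. The KO mean was 6.09 ± 0.37, against 7.47 ± 0.21 in WT (SD, n = 3 each). The KO minus WT difference was -1.38 (SE 0.18, 95% interval -1.78 to -0.98), a 2.61-fold lower level, and passed limma's test across 19938 genes (adjusted p = 0.010, Benjamini-Hochberg). The exact permutation test over arrays gave its smallest possible two-sided p at 3 against 3, 0.10. The KO signal did not drop to the bottom of the array: all 3 KO values lay above the lower quartile of their array (4.57 to 4.68). The sources used here do not place the probes relative to the LacZ insertion, so the signal left in KO may or may not include the disrupted part.

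The heterozygote lay nearer WT. The HET mean was 7.11 ± 0.20, and HET minus WT was -0.36 (SE 0.18, 95% interval -0.76 to 0.04), which did not pass (adjusted p = 0.99 by limma). This is 26.1% of the KO change on the log2 scale. HET lay 0.33 above the midpoint of KO and WT (95% interval -0.01 to 0.68, limma adjusted p = 0.93), so a HET level at the midpoint was not told apart from one above it. KO minus HET was -1.02 (SE 0.18, 95% interval -1.42 to -0.62), a 2.03-fold lower level whose limma adjusted p of 0.078 missed 0.05. That comparison passed with array weights (-1.19, adjusted p = 0.047) and with quantile normalization (-0.997, adjusted p = 0.038). Against WT, Prdm16 no longer passed when the fit left out WT replicate 1 (adjusted p = 0.076) or WT replicate 2 (0.069) and with only KO and WT arrays in the fit (0.080). Of the 8 measured members, Prdm16 was the 1 called in KO against WT, where 0.451% of all genes were called. No member was called in HET against WT (0% of all genes by limma, and 4.05% at an unadjusted p under 0.05) or in KO against HET (0.206% of all genes).

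Some markers of other cell types were also lower in KO. Over all genes, 0.451% were called and 6.15% had an unadjusted p under 0.05 in KO against WT. In KO against HET these shares were 0.206% and 6.16%. The 13 radial glia and ventricular zone markers, all measured, averaged 8.39 to 8.63 in KO, 8.36 to 8.61 in HET and 8.52 to 8.62 in WT arrays, and none was called in any comparison (2 of 13 at an unadjusted p under 0.05 in KO against WT). The 7 astrocyte markers averaged 6.80 to 6.92 in KO, 7.11 to 7.48 in HET and 7.26 to 7.47 in WT arrays. In KO against WT 1 of the 7, the water channel gene Aqp4, was called lower (5 of 7 at an unadjusted p under 0.05). The astrocyte markers Aldh1l1 and S100b, at 0.21 and 0.06, lay above 0 and did not pass. In KO against HET the gap junction gene Gja1 was the 1 astrocyte marker called, and it was lower (4 of 7 at an unadjusted p under 0.05). The 8 ependymal markers averaged 5.28 to 5.54 in KO, 5.69 to 5.93 in HET and 5.92 to 5.93 in WT arrays. None was called in KO against WT (7 of 8 at an unadjusted p under 0.05). In KO against HET 1 of 8, the radial spoke gene Rsph4a, was called lower (5 of 8 at an unadjusted p under 0.05). Gja1, Rsph4a, Aldh1l1 and S100b are named after their values were seen. Choroid plexus, endothelial, microglial and oligodendrocyte markers had no call in KO against WT. Neither had postmitotic neurons or red blood cells (3 of 6 measured). At an unadjusted p under 0.05 were 3 of 11 neuron markers and 1 of 6 oligodendrocyte markers. Of 7 meningeal markers 1, Ogn, was called lower, and the other 6 had unadjusted p over 0.05. In RNA from mixed cells, fewer cells of a type and less RNA per cell cannot be told apart, and the part of these lists in the Prdm16 value was not tested.

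**Figure D1:**
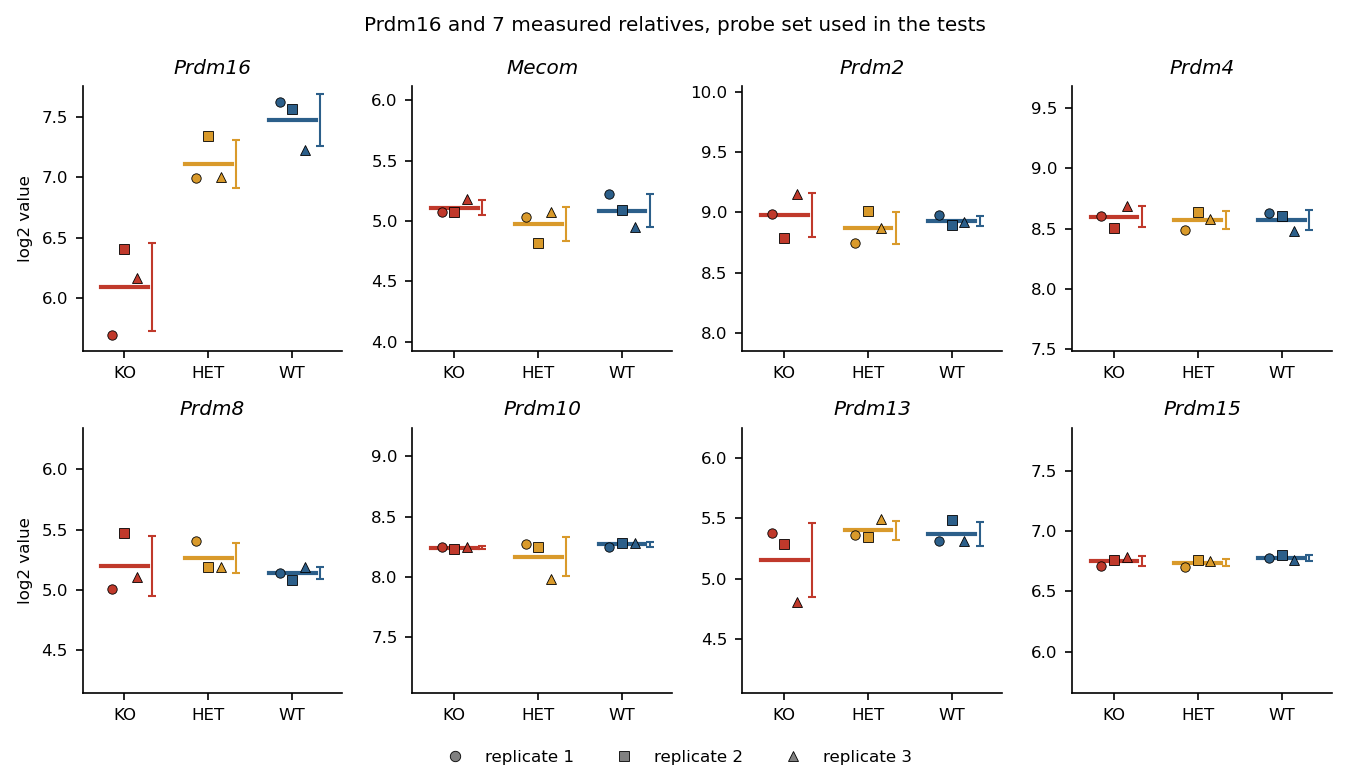
Log2 values (vertical axes, all of the same span) of Prdm16 and the 7 measured relatives in KO, HET and WT arrays. Points are arrays, horizontal bars means and whiskers SD (n = 3). The KO points of Prdm16 lie between 5.69 and 6.41, below all others, and in the other 7 panels the genotypes overlap.

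Mecom, the closest relative, was not called by its probe set of highest mean. It lay at 5.08, 5.08 and 5.18 in KO, at 5.03, 4.81 and 5.08 in HET and at 5.22, 5.09 and 4.95 in WT arrays, and the genotypes overlapped. The KO mean was 5.11 ± 0.06, the HET mean 4.97 ± 0.14 and the WT mean 5.09 ± 0.14 (SD, n = 3 each). KO minus WT was 0.02 (SE 0.10, limma adjusted p = 1). The 95% interval of -0.19 to 0.24 bounds a higher KO level at 1.18-fold for the signal of this set alone. For the other Mecom set, described below, the interval reached 0.41. HET minus WT was -0.11 (95% interval -0.33 to 0.10) and KO minus HET was 0.14 (95% interval -0.08 to 0.35). The exact permutation p was 1 for KO against WT and 0.30 for KO against HET. The sign of the KO against WT value turned without KO replicate 3, without WT replicate 3 (-0.04) and with the Xist level as a covariate (-0.02), so no direction is given for it.

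The dimmer Mecom probe set lay higher in KO. It read 4.84, 4.99 and 5.09 in KO, 4.66, 4.78 and 4.55 in HET and 4.81, 4.73 and 4.74 in WT arrays. All 3 KO arrays lay above all HET and all WT arrays. Over all genes, 5.63% had KO wholly above WT and 3.45% had KO wholly above HET. The KO mean was 4.97 ± 0.13, the HET mean 4.66 ± 0.11 and the WT mean 4.76 ± 0.04 (SD, n = 3 each). Put in the place of the brighter set, an alternative chosen after seeing the data, it gave a KO minus WT difference of 0.21 (SE 0.09, 95% interval 0.01 to 0.41) with an unadjusted p of 0.040 and an adjusted p of 0.77 by limma. KO minus HET was 0.31 (SE 0.09, 95% interval 0.11 to 0.51) with an unadjusted p of 0.0064 and an adjusted p of 0.47 by limma. Neither passed, and the exact permutation p of 0.10 is the smallest that 3 against 3 allows. At an unadjusted p under 0.05, 6.15% of all genes passed in KO against WT and 6.16% in KO against HET.

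The dimmer set stayed higher in KO in every setting run on it. With arrays left out or weighted, this was fixed in advance, because its KO arrays all lay above the HET and WT arrays. In 16 settings, the main fit and each array left out among them, KO minus WT ran between 0.15 and 0.28. KO minus HET ran between 0.25 and 0.38, and none was called (lowest adjusted p = 0.50 and 0.29 by limma). The KO change of the dimmer set exceeded that of the brighter set by 0.19. The exact permutation test of that difference within arrays gave p = 0.20. With 3 against 3 it allows none under 0.10, so it could not settle whether the sets differ. The array's annotation lists 7 transcripts for the dimmer set and 3 for the brighter one, with 1 in common. Which of the Mecom starts shown above feeds each set was not determined here. The dimmer set lay below the lower quartile of its array in 2 of 9 arrays, both HET, and detection calls were not used here.

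**Figure D2:**
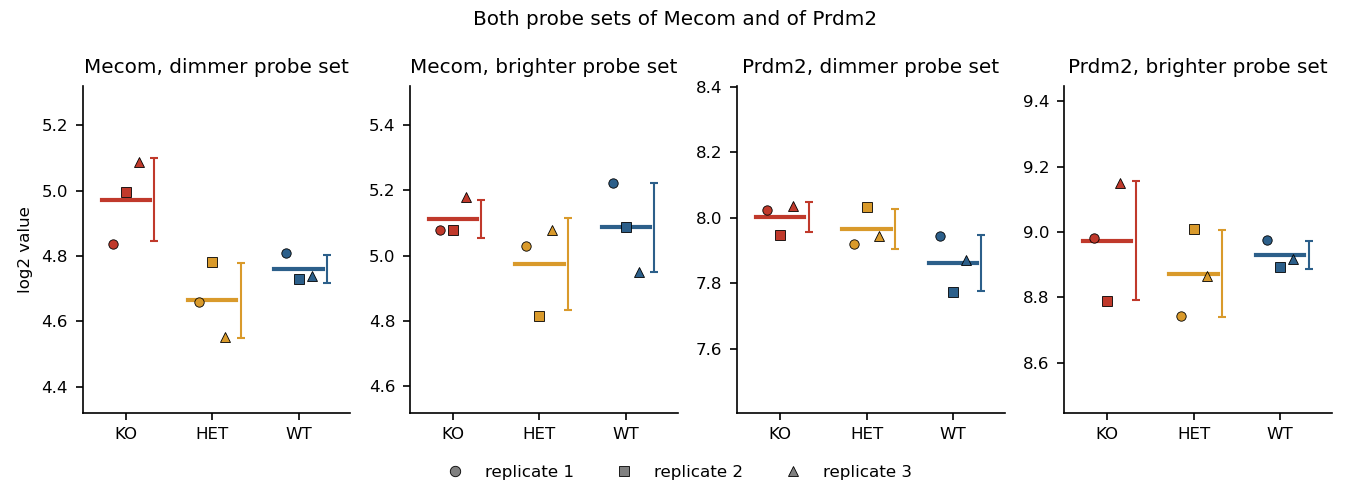
Log2 values of both probe sets of Mecom and of Prdm2 in KO, HET and WT arrays (axes of the same span). Points are arrays, bars means and whiskers SD (n = 3). In the dimmer set of each gene the KO points lie above the WT points, at 4.84 to 5.09 for Mecom. Over all genes, 5.63% had KO wholly above WT. In the brighter set the genotypes overlap.

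Prdm2 (RIZ), named for the retinoblastoma protein that it binds, was also measured by a pair of probe sets. The brighter set lay at 8.98, 8.79 and 9.15 in KO, at 8.74, 9.01 and 8.87 in HET and at 8.98, 8.89 and 8.92 in WT arrays. Its KO minus WT difference was 0.04 (SE 0.10, 95% interval -0.19 to 0.28), and the genotypes overlapped. The dimmer set lay at 8.03, 7.95 and 8.03 in KO, at 7.92, 8.03 and 7.94 in HET and at 7.94, 7.77 and 7.87 in WT arrays. Every KO array of the dimmer set lay above every WT array, while HET overlapped with both. The lowest KO value was 7.949 and the highest WT value 7.943. Over all genes, 5.63% had KO wholly above WT. The KO minus WT difference of the dimmer set was 0.14 (SE 0.08, 95% interval -0.03 to 0.31, unadjusted p = 0.093 by limma). Over 16 settings it ran between 0.10 and 0.18 with no call (lowest adjusted p = 0.46 by limma). The change of the sets differed by 0.10 in KO against WT (exact permutation p = 0.30).

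Among the widely expressed relatives, Prdm4, Prdm10 and Prdm15 showed no call. The HET arrays of Prdm10 had an SD of 0.16, against a median of 0.12 over all genes in HET. Prdm4, which binds the p75 neurotrophin receptor and the arginine methyltransferase PRMT5, lay at 8.60, 8.51 and 8.69 in KO, at 8.49, 8.64 and 8.58 in HET and at 8.63, 8.61 and 8.48 in WT arrays. The 3 genotypes overlapped, and KO minus WT was 0.03 (95% interval -0.15 to 0.21). Prdm10, a zinc finger factor needed by the early mouse embryo, lay at 8.25, 8.23 and 8.25 in KO, at 8.27, 8.25 and 7.99 in HET and at 8.25, 8.28 and 8.28 in WT arrays. HET replicate 3 was the low array, and KO minus WT was -0.03 (95% interval -0.22 to 0.16). Without that array the HET minus WT value of Prdm10 was -0.01, against -0.10 with it.

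Prdm15, a regulator of pluripotency in mouse embryonic stem cells, had the smallest SE of the members. It lay at 6.71, 6.76 and 6.79 in KO, at 6.71, 6.76 and 6.75 in HET and at 6.78, 6.80 and 6.76 in WT arrays. All 9 arrays lay between 6.71 and 6.80. KO minus WT was -0.03 (SE 0.07, 95% interval -0.18 to 0.12), and 0.938% of all genes had a smaller SE.

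Prdm8 and Prdm13, the relatives known for work in neurons, varied more between KO arrays than between genotypes. Prdm8, which acts with BHLHE22 in neurons, lay at 5.01, 5.48 and 5.11 in KO, at 5.41, 5.19 and 5.19 in HET and at 5.14, 5.09 and 5.19 in WT arrays. KO replicate 2 stood above all other arrays, and KO minus WT changed from 0.06 with it to -0.08 without it. Prdm13, which acts downstream of PTF1A in dorsal spinal cord neurons, lay at 5.38, 5.29 and 4.81 in KO, at 5.36, 5.35 and 5.49 in HET and at 5.32, 5.48 and 5.32 in WT arrays. KO replicate 3 was the low array. KO minus WT was -0.21 (SE 0.14, 95% interval -0.51 to 0.09, limma adjusted p = 0.94), and without that array it was -0.04.

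Across the 7 measured relatives, no call was made in any of the 3 comparisons by the probe sets of highest mean. In KO against WT, 4 of the 7 lay above 0 and 3 below, with a median of 0.02, while 52.6% of all genes lay above 0 with a median of 0.01. In HET against WT 2 of 7 lay above 0, beside 51.5% of all genes, and in KO against HET 5 of 7, beside 51%. By these sets no relative had an unadjusted p under 0.05 in these comparisons. The genotypes overlapped in every relative by these sets. Over all genes, 9.98%, 6.85% and 6.54% had no overlap in KO against WT, HET against WT and KO against HET. The upper ends of their 95% intervals in KO against WT reached at most 0.32, for Prdm8, which is 1.25-fold. The lower ends reached at most -0.51, for Prdm13. The dimmer Mecom set, not counted here, had an interval of 0.01 to 0.41 and an unadjusted p of 0.040 by limma.

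**Figure D3:**
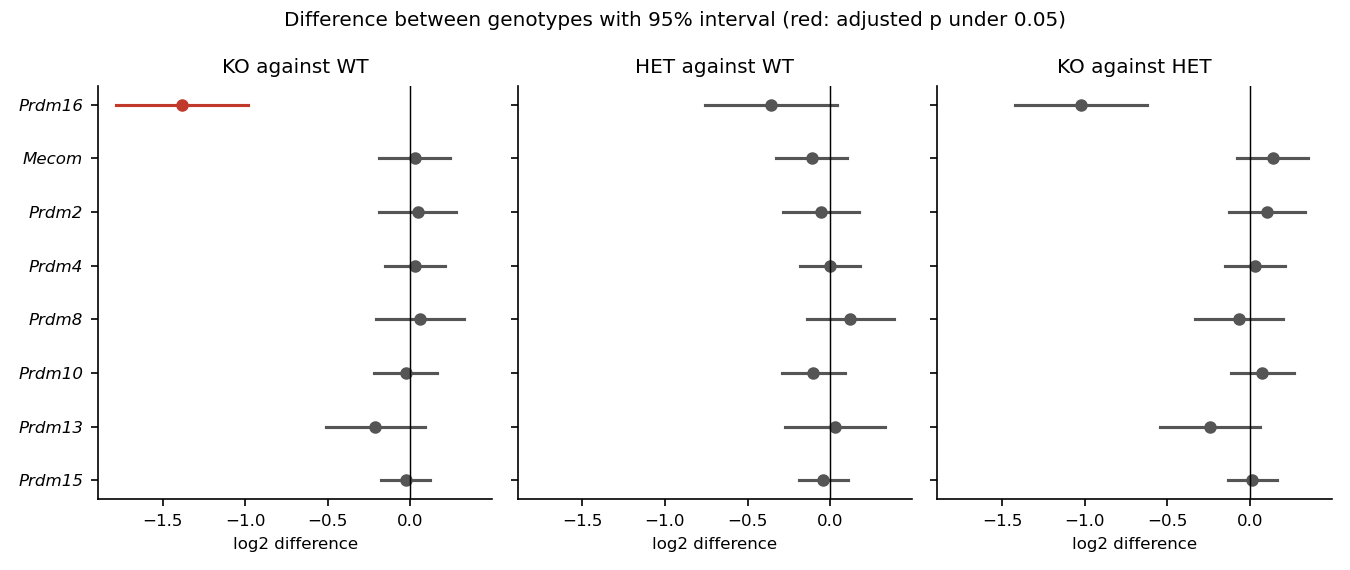
Log2 differences (horizontal axes) of Prdm16 and the 7 measured relatives in the 3 comparisons, with points for the estimate and lines for the 95% interval of the limma fit over 9 arrays. Each gene is shown by its probe set of highest mean, so the dimmer Mecom and Prdm2 sets are not shown. Prdm16 in KO against WT, at -1.38, is the 1 called value, and every interval of a relative shown includes 0.

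Other genes with a PR domain or a degenerate one, from a list of 8 of which 7 were measured, also gave no call in KO against WT (0 of 7 higher, 0 of 7 lower, median -0.01). Prdm9, a histone methyltransferase known from meiosis, lay at 5.12, 5.28 and 4.99 in the KO arrays, at 4.94 in all 3 HET arrays and at 4.87, 4.74 and 4.93 in WT. The KO arrays lay above the HET arrays, which lay above the WT arrays, and no genotypes overlapped. Over all genes 9.98% had no overlap in KO against WT, 6.54% in KO against HET and 6.85% in HET against WT. Prdm9 had the smallest unadjusted p of the 7 listed genes, and its HET arrays held 1 repeated value just above the highest WT array. Its KO minus WT difference of 0.28 (SE 0.09) had an unadjusted p of 0.0096 and did not pass over all genes (adjusted p = 0.48 by limma). Zfpm2, a cofactor of GATA factors, lay at -0.14 and Prdm14, a regulator of germ cells, at -0.15, and neither passed.

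Partners of the PRDM16 and MECOM proteins gave no call either, with 23 of 24 measured, 14 above 0 and 9 below, and a median of 0.02. Ppargc1a, the coactivator with which PRDM16 acts in brown fat, had the smallest unadjusted p of the list, 0.027. It lay at 6.98, 6.91 and 6.66 in KO, at 6.83, 7.42 and 7.25 in HET and at 7.34, 7.14 and 7.19 in WT arrays. KO lay wholly below WT, with a difference of -0.38 (SE 0.15, limma adjusted p = 0.71). Over all genes, 9.98% had no overlap in KO against WT. Smad3, which carries TGF-beta signals, lay at 0.23 and the blood regulator Runx1 at 0.15, and neither passed. The shared co-repressors Ctbp1 and Ctbp2, outside the naming rule and added for their role, lay at 0.06 (SE 0.09) and -0.10 (SE 0.08).

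Of 13 partners of the other relatives 10 were measured, and none was called in KO against WT (5 above 0, 5 below, median -0.01). Neurog1, a proneural factor, lay at 5.05, 5.06 and 4.88 in KO, at 5.15, 4.85 and 5.01 in HET and at 5.24, 5.30 and 5.37 in WT arrays. KO and HET overlapped and both lay below WT. The differences from WT were -0.31 and -0.30 (SE 0.09 each), with adjusted p of 0.44 and 0.99 by limma. Over all genes, 9.98% had no overlap in KO against WT and 6.85% in HET against WT. Neurog1 had the smallest unadjusted p of the list in KO against WT. Ntrk3, a neurotrophin receptor, lay at 0.12 and Prmt5, the methyltransferase that PRDM4 binds, at 0.08, and neither passed.

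Genes of a profile like that of Prdm16 were found by the root mean square difference of log2 values over the 9 arrays, each gene centred on its mean. The 5 nearest were Ogn (0.17), a small proteoglycan, Aqp4 (0.19), Ppp1r36 (0.24), Capsl (0.24) and Fxyd1 (0.24), a regulator of the sodium pump. A gene with no change at all would lie at 0.63. The 5 nearest to the profile turned upside down were the neuropeptide gene Npy (0.13), the nuclear receptor gene Nr2f2 (0.20), the hyaluronan synthase gene Has2 (0.21), Gatm (0.22), which makes creatine precursors, and the pentraxin gene Ptx3 (0.26). Nr2f2 differed by 1.19 between KO and WT and did not pass (adjusted p = 0.057 by limma), while the other 9 were called. These genes were chosen by their profile over the same arrays, which largely fixed the calls in advance. The relatives lay at 0.57 to 0.66 from Prdm16, close to a flat gene, with Prdm13 the nearest and Prdm2 the farthest.

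**Figure D4:**
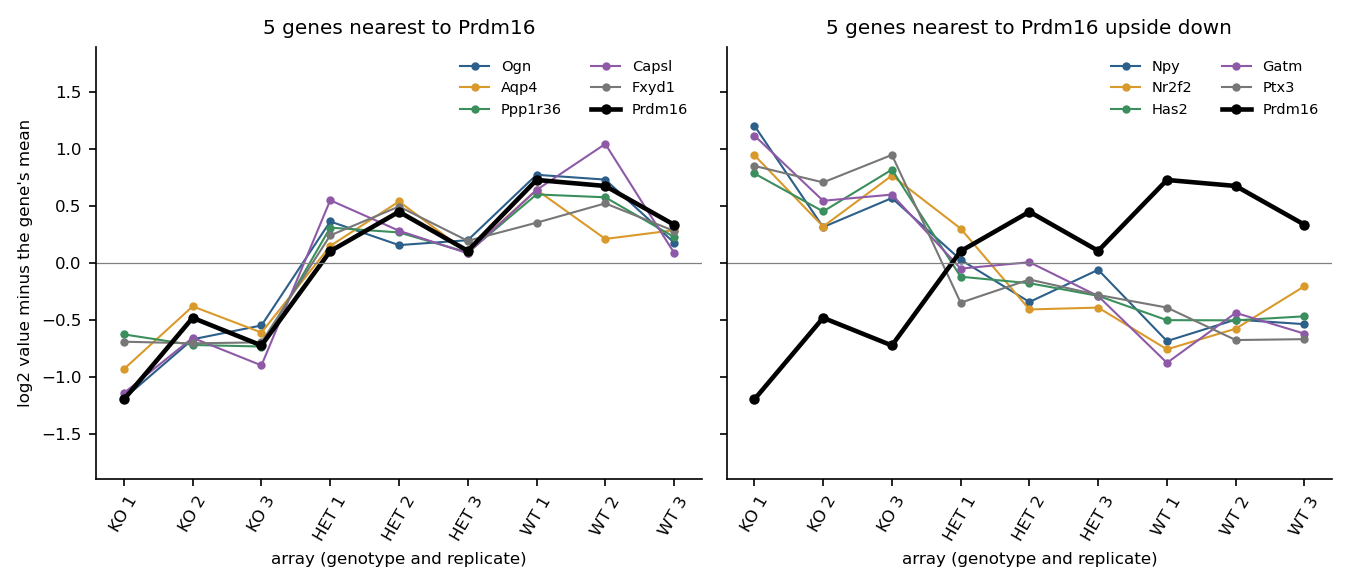
Log2 values minus each gene's mean (vertical axis) in the 9 arrays (horizontal axis) for Prdm16 in black with the 5 genes nearest to it (left panel) and the 5 nearest to its mirror profile (right panel). The distance of Ogn from Prdm16 is 0.17 and that of Npy from the mirror profile 0.13. The chosen genes separate KO from HET and WT by construction.

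Exact repeats of a value between arrays limited what the small spreads of some relatives mean. The brighter Mecom set and the Prdm8 and Prdm10 sets each held 7 different values among 9 arrays, with 1 value found in 3 arrays, and Prdm9 held the same value in all HET arrays. Such repeats were found in 62.9% of all genes, and Prdm16 and the dimmer Mecom set held none. Array medians lay between 5.80 and 5.92, and the correlation over probe sets was 0.989 to 0.996 within a genotype and 0.988 to 0.995 between genotypes. Xist, the X-inactivation RNA of females, was high in 2 KO, 1 HET and 1 WT array and low in the others. HET replicate 1 and KO replicate 2 had the lowest array weights, 0.547 and 0.364. Without both of them Prdm16 stayed called in KO against WT, and no relative was called.

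**Figure D5:**
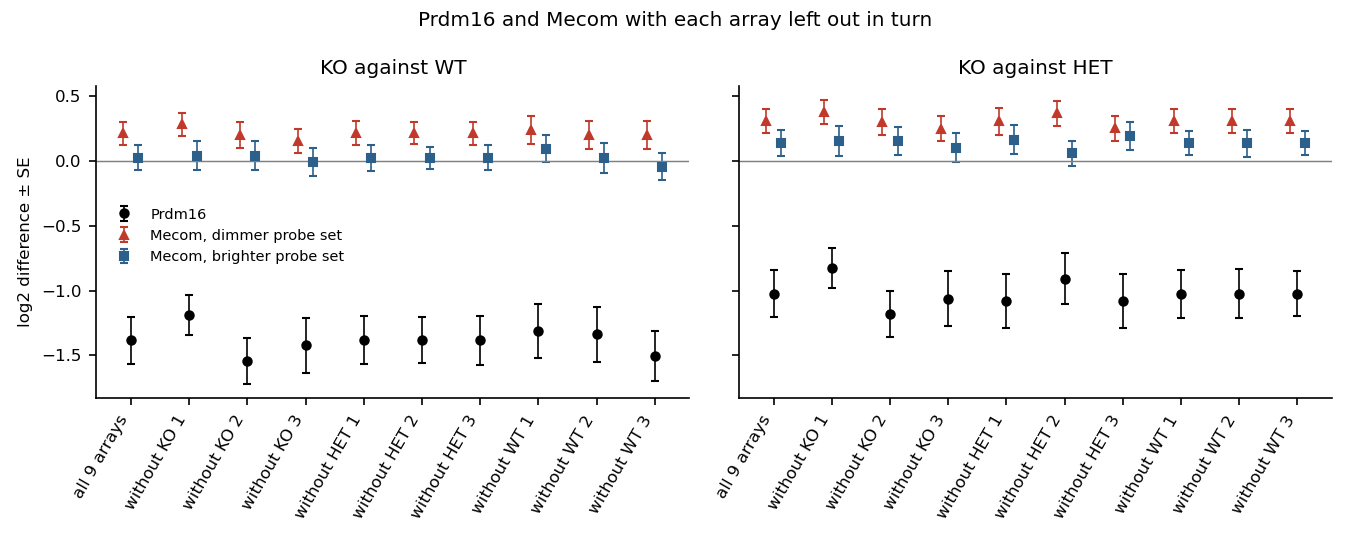
Log2 differences ± SE (vertical axis) of Prdm16 and of both Mecom probe sets in KO against WT and KO against HET, with all 9 arrays and with each array left out in turn (horizontal axis). Prdm16 lies between -1.54 and -1.19 in KO against WT with 1 array left out. The dimmer Mecom set lies above 0 at every point, which was fixed because its KO arrays all lay above the HET and WT arrays. The brighter set lies on both sides of 0 in KO against WT.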

How the data were processed

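Per the submitters' processing notes, which name RMA, affy and limma with neither version nor order, the authors deposited one log2 value per probe set (28940) and array (9), none missing. RMA subtracts background, equalizes arrays and combines a set's probes. The build was not given in the sources used here. Gene names came from the platform annotation: 21789 probe sets had 1 symbol, and 1621 with several and 5530 with none were left out. Each gene was represented by its set of highest mean (19938 genes).

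All 9 arrays entered 1 fit of limma 3.58.1 (R 4.3.3; lmFit, eBayes; two-sided tests), with Benjamini-Hochberg adjustment over every gene; calls needed an adjusted p under 0.05. The fit was tested on simulated data. Sequences are RefSeq windows (GRCm38.p6). The text names the members, at most 3 genes of each partner list, by unadjusted p, and the 5 genes nearest to Prdm16 and to its mirror profile. Members and lists were chosen with earlier results of these data known.

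The alternatives covered a replicate block, fits of only the compared genotypes, trended robust eBayes, array weights, dropping the dimmest 1 in 3 genes, all probe sets or their mean, quantile normalization, median centring, an Xist covariate and leaving out each array. None of 9 same-number pairs of arrays had deviations from their genotype means correlated over 0.1 (-0.34 to 0.07). Some pairs of different number did, such as KO replicate 2 with HET replicate 1 (0.36). Deviations within a genotype cancel out, so these correlations are tied to each other. A shared litter or batch was not tested.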

Additional observations from a re-analysis of the deposited data

How the results depend on the processing

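Over 21 alternatives, 2 of them chosen after seeing the data, no relative was called in any comparison (lowest limma adjusted p = 0.47). Prdm16 in KO against WT kept its direction in all 21 and lost the call in 3: with only the compared genotypes (-1.38, adjusted p = 0.080), and without WT replicate 1 or WT replicate 2; leaving out 1 array gave -1.54 to -1.19. In KO against HET it passed with array weights (-1.19) and quantile normalization (-0.997). The cause was not tested. With the replicate block, Prdm16 stayed at -1.38 and called in KO against WT and no call of a member changed, while KO against HET had 19 genes called.

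Signs of uncalled values turned in some settings. In KO against WT, Mecom was -0.018 with the Xist level as a covariate and -0.044 to 0.093 with 1 array left out. Prdm8 was -0.039 with array weights, -0.0064 with Xist, -0.082 without HET replicate 1 and KO replicate 2, and -0.082 to 0.15 with 1 array left out. Prdm4 was -0.012 with quantile normalization and -0.018 to 0.074 with 1 array left out, and Prdm2 -0.044 to 0.14. In HET against WT, Prdm4 was 3.4e-05 with array weights, 0.012 with median centring, 0.039 without those 2 arrays and -0.049 to 0.039 with 1 array left out. Prdm2 was 0.023 with the mean of its probe sets, 0.10 with its dimmer set, 0.0082 without the 2 arrays, and -0.12 to 0.0082 with 1 array left out; Prdm13 was -0.016 to 0.086. In KO against HET, Prdm15 was -0.0067 with array weights, -0.0055 without the 2 arrays and -0.0044 to 0.034 with 1 array left out. Prdm4 was -0.013 to 0.076, Prdm8 -0.21 to 0.028 and Prdm10 -0.018 to 0.12.

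The number of genes called in KO against WT was 90, against 33 with only the compared genotypes, 151 with array weights, 50 without the 2 arrays of lowest weight, and 23 to 77 with 1 array left out. In KO against HET it was 41, against 8 with only the compared genotypes, 26 with every probe set, 21 with median centring, 24 with Xist, and 12 to 75 with 1 array left out. In HET against WT it was 0 throughout. Mecom and Prdm8 were not tested with the dimmest genes left out. The values of Mecom, Prdm8 and Prdm13 lay near 5, and the part of signal level in their results was not tested.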
